A study of Mus musculus with 8 samples.

Results

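The collagen genes of the mouse mandibular arch were taken by symbol, as every gene named Col, digits, a, digits in the platform annotation. This gave 42 of the 18194 genes measured, read by 82 of the probe sets with 1 symbol, and the brightest probe set of each gene (highest mean over all 8 arrays) was used. Col28a1 and Col6a6 were not analysed here. RNA of the arch, which forms the lower jaw, was read on Affymetrix arrays at embryonic day 11.5 from 4 mutants of genotype Wnt1-Cre;Alk5 fl/fl and 4 controls of genotype Alk5 fl/fl. Both groups carried the floxed Alk5 allele on the C57BL/6J strain, and sex was not determined. Alk5 is the type I TGF-beta receptor, also named Tgfbr1. The Wnt1-Cre driver removes it from neural crest cells, which make most of the arch mesenchyme, and not from the mesoderm, ectoderm or endoderm. The control labels name no Cre, so effects of driver and deletion cannot be told apart. The labels number the samples but do not say that each is a separate embryo or litter, so each p-value reflects sample-to-sample spread alone, which may be technical.

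Collagens are trimers of chains whose glycine-rich repeats wind into a triple helix. Fibrillar collagens (types I, II, III, V, XI, XXIV and XXVII) build the cables of connective tissue and cartilage. Beaded-filament collagen VI forms microfibrils around cells, type IV forms the sheet of basement membranes, and FACIT collagens sit on the surface of fibrils. TGF-beta is well known to raise transcription of type I collagen genes in mesenchymal cells. Cartilage uses types II, IX and XI together, where type IX decorates the fibril.

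Of the 42 collagen genes, 5 were lower in the mutants (Col6a2, Col6a1, Col1a1, Col1a2 and Col26a1) and 1 was higher (Col9a1), while 36 did not pass. These are limma's moderated tests with Benjamini-Hochberg adjustment over all 18194 genes, called at an adjusted p under 0.05. At this threshold 2.14% of all genes were called in either direction. The lower collagens made up 11.9% of the family, where 1.31% of all genes were lower, and the higher one 2.38%, where 0.835% of all genes were higher. Both chains of type I collagen and 2 of the chains of type VI fell. Of the type IX chains, Col9a1 passed and Col9a2 and Col9a3 did not. The median log2 fold change, mutant minus control, was -0.12 over the family and -0.01 over all genes, and 57.1% of collagens lay below 0, against 52.0% of all genes. Groups did not overlap for 8 collagens (19.0% of them), 6 with all mutants lower and 2 with all mutants higher, where 10.3% of all genes had no overlap (7.02% with mutants lower, 3.27% with mutants higher). The count of lower collagens depended on single arrays: it was 0 without control 1, 2 or 3 or mutant 1 or 4, 2 without mutant 3, 6 without mutant 2 and 8 without control 4.

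**Figure D1:**
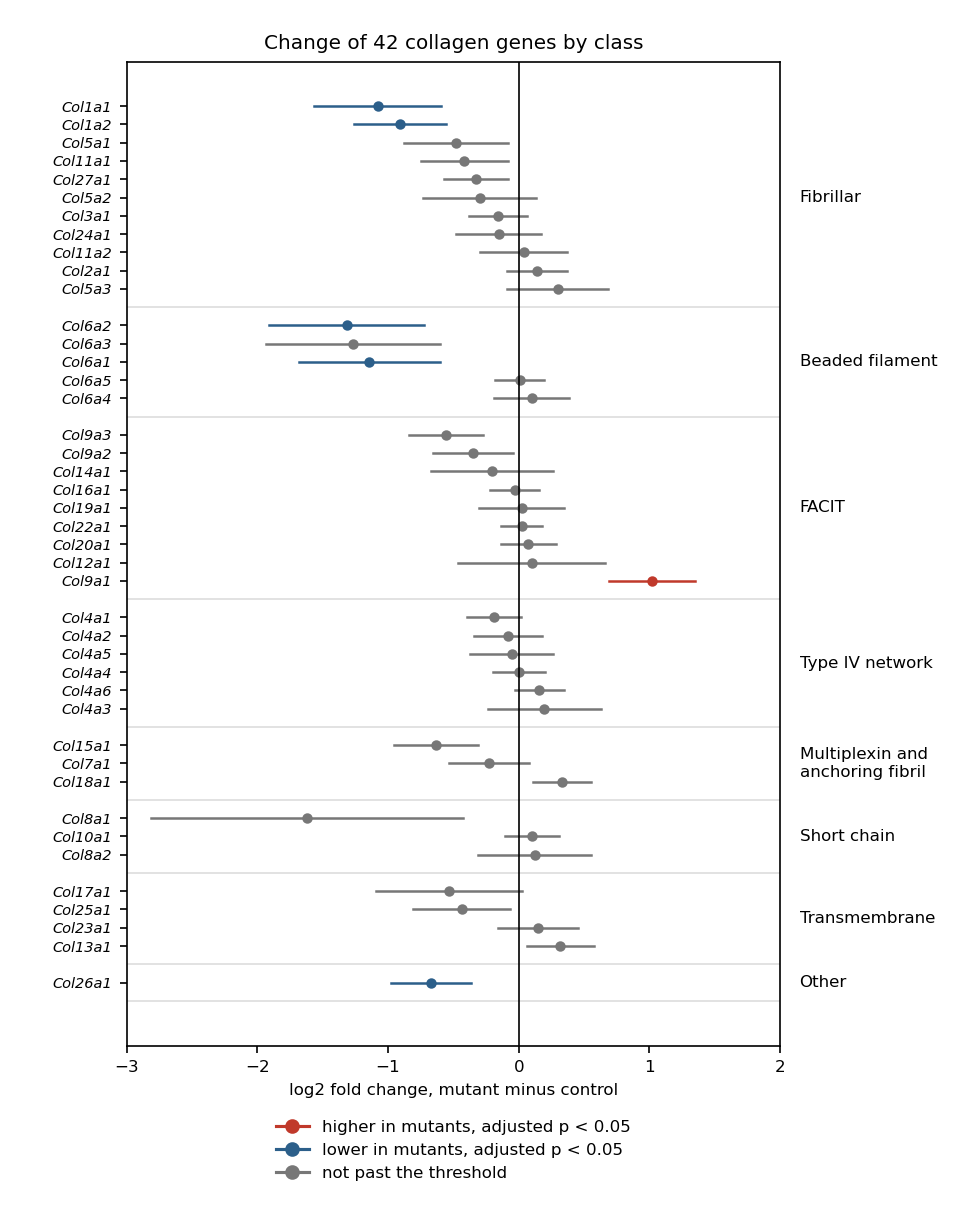
Log2 fold change (mutant minus control) of the 42 collagen genes in 8 classes, with points for the estimate and bars for its 95% interval from limma. Blue and red mark genes past an adjusted p of 0.05; Col1a1, Col1a2, Col6a1, Col6a2 and Col26a1 lie to the left of 0 and Col9a1 to the right.

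The arrays differed little in their overall distribution, with median log2 values of 6.28 to 6.42, but mutant 3 had the lowest correlations with the others (0.986 to 0.991) and a spread of 2.42 over all probe sets, against 2.52 to 2.56. Tgfbr1 itself was not lower in the mutants (0.19 ± 0.0673, log2 fold change ± SE, adjusted p = 0.232, all mutants above all controls). Whether its probe set lies outside the deleted part is not known here, so it checks nothing. Arch mesenchyme markers were bright in both groups, with a mean level of 11.11 to 11.32 over 7 genes in mutants and 11.09 to 11.38 in controls. Among them Dlx2 alone passed and rose (0.56, adjusted p = 0.0253), where 2.14% of all genes passed, Msx1 was at -0.58 and Prrx1 at -0.34. Groups did not overlap for 5 of 7, where 10.3% of all genes had no overlap. Of these, 4 had all mutants lower and 1 had all mutants higher. Precision is limited by having 4 arrays a group. In whole tissue, fewer cells of a type and less RNA per cell cannot be told apart.

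Type I collagen, the main fibril of skin, bone and tendon, is made of the chains of Col1a1 and Col1a2. Col1a1 read 8.88, 9.60, 9.05 and 8.66 (log2 expression) in mutants 1 to 4, against 10.32, 10.31, 10.27 and 9.61 in controls 1 to 4. Every mutant lay below every control, but mutant 2 was nearly level with control 4. The gene fell by 1.08 ± 0.216 on the log2 scale (± SE, adjusted p = 0.0391). Col1a2 read 12.92, 13.31, 12.93 and 12.58 in mutants and 13.92, 14.04, 13.88 and 13.54 in controls, again without overlap and again with mutant 2 and control 4 nearest to each other. It fell by 0.91 ± 0.157, a level 1.88-fold lower (adjusted p = 0.0219). Of 16 alternative fits, Col1a1 passed in 8 and Col1a2 in 11. A second bright probe set of Col1a2 fell by 1.04 ± 0.186 (adjusted p = 0.0331 in a fit over all 34958 probe sets with 1 symbol, of which 1.12% passed), and the second of Col1a1 was at -1.07 ± 0.215 (adjusted p = 0.0511).

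None of the other 9 fibrillar genes passed. Col3a1, whose type III collagen is co-assembled with type I in soft tissues, read 13.58, 13.81, 13.58 and 13.46 in mutants and 13.84, 13.87, 13.79 and 13.56 in controls. The groups overlapped, and its difference of -0.16 had a 95% interval of -0.38 to 0.06 (adjusted p = 0.557). That interval does not reach the estimate of either type I gene. Col5a1, whose type V collagen starts and limits the width of type I fibrils, was at -0.48 ± 0.177 (± SE, adjusted p = 0.26), and its partner Col5a2 at -0.30 ± 0.193. Col11a1 was at -0.42 ± 0.149 and Col27a1 at -0.33 ± 0.108. A dimmer probe set of Col27a1, which read 7.67, 7.74, 7.76 and 7.66 in mutants and 8.08, 8.03, 8.23 and 8.13 in controls, fell by 0.41 ± 0.0724 (adjusted p = 0.0301 over all probe sets). Col24a1, Col11a2 and Col5a3 lay below the lower quartile of all genes, with differences of -0.15, 0.04 and 0.30. As a class, 8 of 11 fibrillar genes (72.7%) were below 0, against 52.0% of all genes. Of the 11, 2 fell (18.2%), where 1.31% of all genes fell. The class median was -0.30.

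The RefSeq promoter windows (GRCm38.p6, 250 bases before to 50 after the start) of Col1a2 and Col3a1 are shown because both genes are fibrillar and were bright in every sample, and the first fell while the second did not pass. They lie at chr6:4505368-4505667 and chr1:45311288-45311587, both on the plus strand, and Col1a1 has no entry. Capitals mark 5 motifs searched on both strands: the TATA box TATAAA, the CCAAT box, the GC box GGGCGG, the Smad element core CAGAC and the Sox core CTTTGT.
Col1a2: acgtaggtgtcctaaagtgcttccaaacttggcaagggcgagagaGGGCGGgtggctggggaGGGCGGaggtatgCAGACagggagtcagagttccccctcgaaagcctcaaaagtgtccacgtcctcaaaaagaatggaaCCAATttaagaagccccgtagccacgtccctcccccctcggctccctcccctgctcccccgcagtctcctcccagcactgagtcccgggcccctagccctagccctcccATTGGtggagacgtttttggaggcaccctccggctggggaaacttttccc
Col3a1: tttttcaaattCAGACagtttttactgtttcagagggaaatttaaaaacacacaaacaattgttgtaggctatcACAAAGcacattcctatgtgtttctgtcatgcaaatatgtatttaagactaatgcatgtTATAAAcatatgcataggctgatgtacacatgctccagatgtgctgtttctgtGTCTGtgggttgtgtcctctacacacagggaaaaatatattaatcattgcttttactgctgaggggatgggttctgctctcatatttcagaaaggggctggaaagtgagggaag
The Col1a2 window holds 2 CCAAT, 2 GGGCGG and 1 CAGAC matches and no TATAAA. Col3a1 holds 1 TATAAA, 2 CAGAC and 1 CTTTGT matches. CAGAC occurs in 50% of the 36 collagen windows, which cover 33 of the 42 genes, and in 49.6% of all 32851 windows, close to the same share. GGGCGG occurs in 61.1% of collagen windows and 35.7% of all, CCAAT in 36.1% and 37.4%, TATAAA in 13.9% and 13.6%, and CTTTGT in 11.1% and 18.7%.

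Collagen VI, which links cells to the surrounding matrix and is known from muscular dystrophies when mutated, had the lowest median of the classes with 3 or more genes. Its classical chains come from Col6a1, Col6a2 and Col6a3. Col6a2 read 9.49, 9.92, 9.52 and 8.97 in mutants and 10.94, 11.28, 10.88 and 10.06 in controls, with no overlap. It fell by 1.32 ± 0.264 (log2, ± SE), a 2.49-fold lower level (adjusted p = 0.039). A second, dimmer probe set of Col6a2 was at -1.02 ± 0.253 and did not pass (adjusted p = 0.109 over all probe sets). Its groups overlapped, with mutant 3 just above control 4. With the mean of its probe sets Col6a2 was at -1.17 and narrowly missed the threshold (adjusted p = 0.0516). Col6a1 read 7.58, 8.12, 7.52 and 7.45 in mutants and 8.91, 9.14, 9.11 and 8.07 in controls, so mutant 2 lay just above control 4. It fell by 1.14 ± 0.24 (adjusted p = 0.0449). Col6a3 read 8.84, 9.75, 8.88 and 8.37 in mutants and 10.34, 10.64, 10.37 and 9.58 in controls, with the same crossing of mutant 2 and control 4. Its difference of -1.27 ± 0.297 was of similar size but missed the threshold (adjusted p = 0.0684). Col6a3 passed in 4 of 16 alternative fits: without control 4, without mutant 2, with array weights and with the replicate number as a block. Of the same 16 fits, Col6a2 passed in 8 and Col6a1 in 9. The later-described chains Col6a4 (0.10 ± 0.128) and Col6a5 (0.01 ± 0.0834) did not pass, and Col6a5 lay below the lower quartile of genes. Of the 5 measured genes, 2 fell (40%, where 1.31% of all genes fell) and 3 did not pass.

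Col6a1 and Col6a2 are next to each other on chromosome 10, with no other protein-coding gene between them, and both fell. Their windows are shown as the pair of neighbouring genes with a shared change: chr10:76725995-76726294 for Col6a1 and chr10:76623355-76623654 for 1 of the Col6a2 starts, both on the minus strand and printed 5′ to 3′. Capitals mark the same 5 motifs.
Col6a1: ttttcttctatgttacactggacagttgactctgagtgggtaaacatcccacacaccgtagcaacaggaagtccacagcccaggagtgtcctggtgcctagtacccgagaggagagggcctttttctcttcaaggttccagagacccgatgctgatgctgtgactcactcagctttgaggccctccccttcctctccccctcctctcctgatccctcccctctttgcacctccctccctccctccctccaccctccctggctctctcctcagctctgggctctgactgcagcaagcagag
Col6a2: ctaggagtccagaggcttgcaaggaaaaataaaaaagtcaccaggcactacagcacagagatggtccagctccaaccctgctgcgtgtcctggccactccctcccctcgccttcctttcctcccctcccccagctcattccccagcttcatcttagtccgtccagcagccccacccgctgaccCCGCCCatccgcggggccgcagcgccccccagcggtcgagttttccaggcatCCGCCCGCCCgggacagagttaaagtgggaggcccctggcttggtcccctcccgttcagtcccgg
Col6a1 holds none of the 5 motifs in this window. Col6a2 holds 3 matches to GGGCGG on its reverse, the last 2 of them overlapping. The window of its other start (chr10:76623581-76623880) holds 1 GGGCGG and 1 CAGAC match. Other neighbouring collagen pairs did not pass in either gene: Col4a1 and Col4a2 (-0.19 and -0.08), Col4a4 and Col4a3 (0.00 and 0.20), Col4a6 and Col4a5 (0.16 and -0.05), Col3a1 and Col5a2 (-0.16 and -0.30), and Col6a5 and Col6a4 (0.01 and 0.10). Col9a1 rose next to Col19a1, which was at 0.02.

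**Figure D2:**
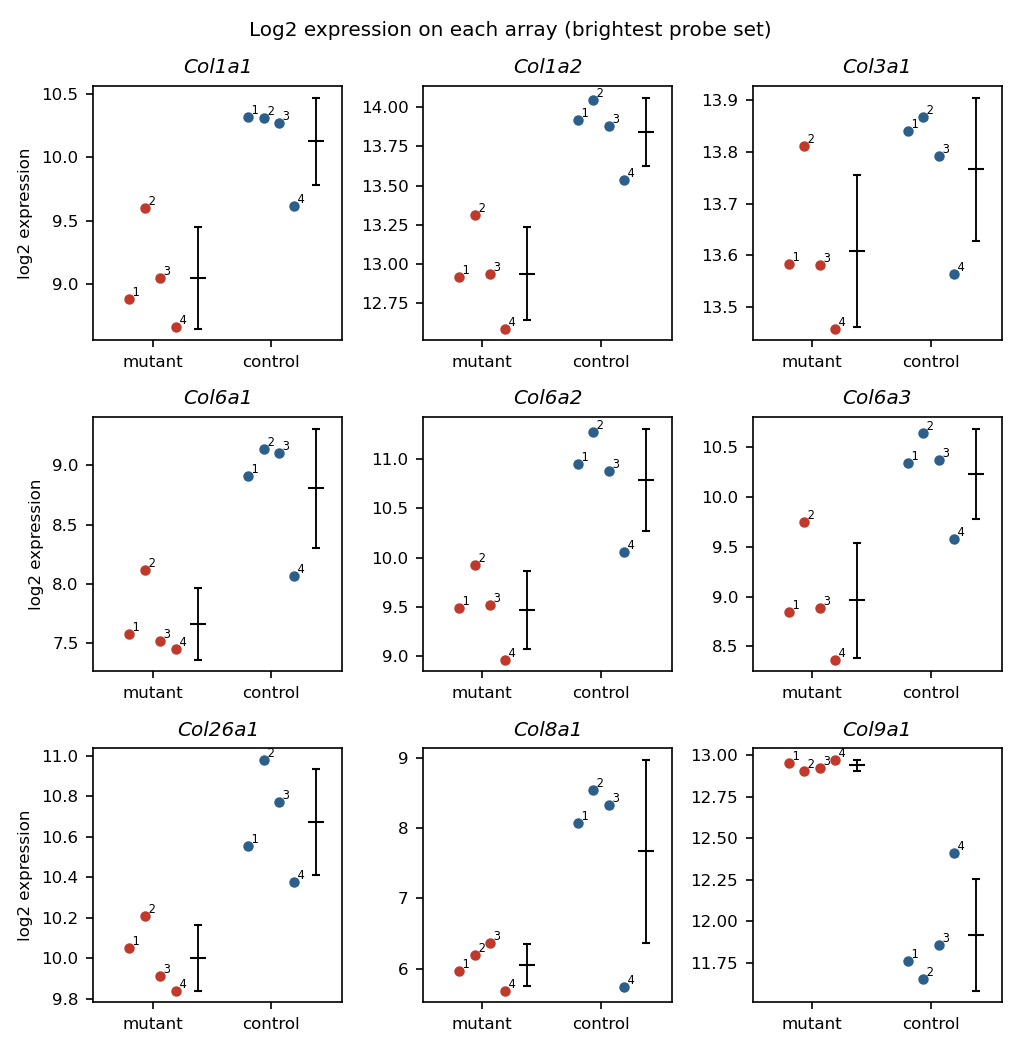
Log2 expression on each array for 9 collagen genes, mutants (red) left of controls (blue), numbered by replicate; the black mark and bar are the mean and SD over 4 arrays. For type I and type VI genes and Col26a1, mutant 2 is the highest mutant and control 4 the lowest control; for Col8a1 control 4 lies among the mutants.

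Type IX collagen is a trimer of the chains of Col9a1, Col9a2 and Col9a3, of which Col9a1 passed. Col9a1 read 12.96, 12.90, 12.92 and 12.98 in mutants and 11.76, 11.65, 11.86 and 12.41 in controls. The mutants were within 0.1 of each other and all above the controls, of which control 4 was the highest. Col9a1 rose by 1.02 ± 0.147 (log2, ± SE), a 2.03-fold higher level (adjusted p = 0.0105), and it passed the threshold of 0.05 in all 16 alternative fits (adjusted p from 4.5e-04 to 0.0477), though not a threshold of 0.01 with all arrays. Its other probe set read 10.11, 10.01, 9.80 and 10.13 in mutants and 8.65, 8.67, 9.01 and 9.47 in controls, and rose by 1.06 ± 0.172 (adjusted p = 0.0231 over all probe sets).

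Col9a3 read 6.86, 7.11, 6.98 and 7.20 in mutants and 7.56, 7.73, 7.83 and 7.27 in controls with its brightest probe set, with no overlap. The difference of -0.56 ± 0.127 narrowly missed the threshold (adjusted p = 0.0602). A second Col9a3 probe set of nearly the same brightness read 6.39, 6.49, 6.32 and 6.68 in mutants and 7.61, 7.36, 8.03 and 7.13 in controls, and fell by 1.06 ± 0.174 (adjusted p = 0.0244 over all probe sets). Col9a3 also passed with the mean of its probe sets (-0.57, adjusted p = 0.036), with array weights, with a trended robust variance and without control 4. In all, Col9a3 passed in 5 of 15 alternative fits. Col9a2 read 6.505, 6.76, 6.25 and 6.48 in mutants and 6.86, 6.57, 7.14 and 6.83 in controls. Its groups overlapped, at -0.35 ± 0.136 (adjusted p = 0.294).

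**Figure D3:**
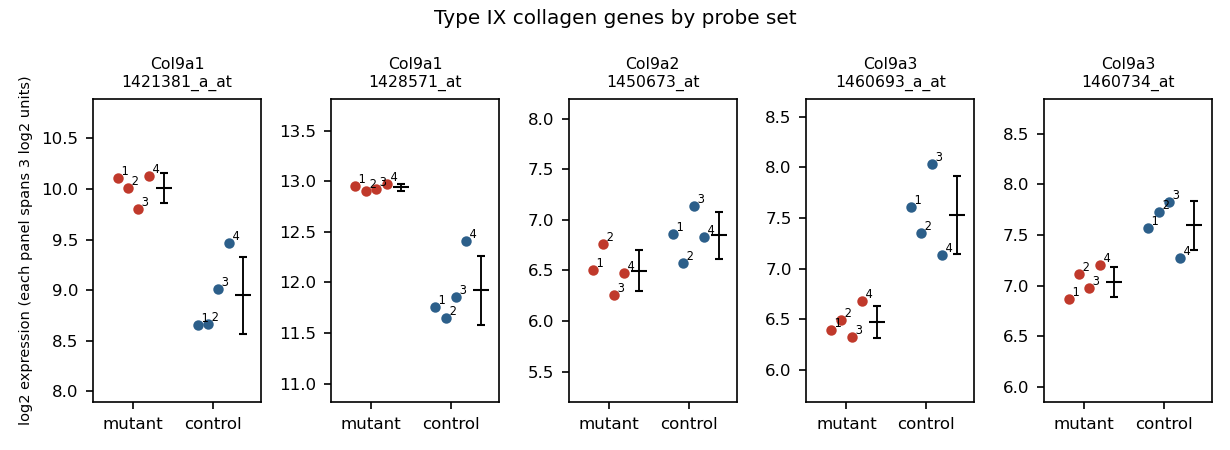
Log2 expression of the type IX genes by probe set on each array, mutants (red) left of controls (blue), with mean and SD over 4 arrays; each panel spans the same number of log2 units. Both Col9a1 probe sets are higher in all mutants and both Col9a3 probe sets shown are lower in all mutants; another, dim Col9a3 probe set (-0.08) is not drawn.

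RefSeq gives Col9a1 a pair of starts 17593 bases apart, and a short form that begins at the inner one is known from the eye. Both windows and that of Col9a2 are shown because the genes encode chains of 1 trimer, of which Col9a1 rose and Col9a2 did not pass, and Col9a3 has no entry. They lie on the plus strand at chr1:24177360-24177659 (outer start), chr1:24194953-24195252 (inner start) and chr4:121039316-121039615. Capitals mark the 5 motifs as before.
Col9a1 outer start: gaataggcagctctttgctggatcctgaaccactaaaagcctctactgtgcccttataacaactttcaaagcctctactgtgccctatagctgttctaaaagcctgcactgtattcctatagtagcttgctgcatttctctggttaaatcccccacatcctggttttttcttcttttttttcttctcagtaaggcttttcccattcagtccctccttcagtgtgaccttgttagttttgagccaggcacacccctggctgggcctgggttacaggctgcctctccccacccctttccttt
Col9a1 inner start: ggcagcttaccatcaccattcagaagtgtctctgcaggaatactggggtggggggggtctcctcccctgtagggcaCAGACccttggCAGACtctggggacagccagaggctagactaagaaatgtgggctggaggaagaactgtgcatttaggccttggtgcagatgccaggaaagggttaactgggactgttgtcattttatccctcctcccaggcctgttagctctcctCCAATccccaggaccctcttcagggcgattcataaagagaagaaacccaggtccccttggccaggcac
Col9a2: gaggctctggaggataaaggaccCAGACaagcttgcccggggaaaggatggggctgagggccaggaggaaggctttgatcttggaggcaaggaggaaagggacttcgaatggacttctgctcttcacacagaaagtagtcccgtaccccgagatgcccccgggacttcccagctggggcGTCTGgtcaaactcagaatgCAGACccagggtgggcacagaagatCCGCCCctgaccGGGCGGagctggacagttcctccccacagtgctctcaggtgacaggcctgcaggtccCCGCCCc
The outer window of Col9a1 holds none of the 5 motifs, the inner one 1 CCAAT and 2 CAGAC matches, and Col9a2 3 GGGCGG and 3 CAGAC matches. Which start the arrays read was not tested.

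The other cartilage collagens did not follow Col9a1. Col2a1, the main cartilage fibril, read 10.42, 10.53, 10.18 and 10.32 in mutants and 9.998, 10.28, 10.32 and 10.28 in controls. The groups overlapped, and the difference of 0.14 had an interval of -0.09 to 0.37 (adjusted p = 0.627). Col10a1, which marks hypertrophic cartilage, lay below the lower quartile of genes (0.10 ± 0.0935). Among 8 cartilage collagens Col9a1 alone passed (12.5% rose, where 0.835% of all genes rose), and their median was -0.14. Sox9, the regulator of Col2a1 and other cartilage genes, was at 0.04 ± 0.119 (adjusted p = 0.921), and its partner Sox6 at -0.77 ± 0.194 (adjusted p = 0.0877). The mean level over 7 cartilage markers ran from 6.60 to 6.93 in mutants and from 6.87 to 7.44 in controls, 0 of them passed, and 1 (Matn1) lay below the lower quartile. The largest difference in this list was that of Cnmd (-1.78 ± 0.494, adjusted p = 0.121). Hapln1 was at -0.42, Acan at -0.11, Sox5 at -0.05 and Matn1 at 0.12. The part of these markers in the collagen values was not tested.

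Among the remaining FACIT genes, which bridge fibrils to other matrix, Col12a1 (0.10 ± 0.251), Col14a1 (-0.20 ± 0.208), Col16a1 (-0.03 ± 0.0823), Col19a1 (0.02 ± 0.144) and Col20a1 (0.07 ± 0.0938) did not pass. Col22a1, known from tissue junctions, did not pass with its chosen probe set (0.02 ± 0.0702). A probe set of similar brightness that can match several transcripts read 6.40, 6.41, 6.10 and 6.28 in mutants and 5.59, 5.58, 5.63 and 5.93 in controls. It rose by 0.62 ± 0.106 (adjusted p = 0.0283 over all probe sets), and the remaining probe set was at 0.36 ± 0.147 (adjusted p = 0.398).

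Type IV collagens of the basement membrane lay between -0.19 and 0.20. Of the 6 type IV genes 0 passed in limma and 0 had an unadjusted p under 0.05. Over all genes 2.14% passed and 13.5% had an unadjusted p under 0.05. All 6 had overlapping groups, where 10.3% of all genes had no overlap, and their median was -0.03. Counts of 0 among 6 genes do not set the class apart from these shares. Col4a1 and Col4a2, which encode the chains present in every basement membrane, were at -0.19 ± 0.0917 and -0.08 ± 0.117, with intervals of -0.39 to 0.02 and -0.34 to 0.18. Those intervals do not reach the estimate for Col1a2. The mean level of 8 endothelial markers was 8.19 to 8.65 in mutants and 8.41 to 8.53 in controls, and 0 passed. Col4a3 and Col4a4 lay below the lower quartile of genes.

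The collagens that attach to basement membranes differed among themselves. Col15a1, a multiplexin of vessels and muscle, read 5.85, 5.84, 6.29 and 6.05 in mutants and 6.503, 6.73, 6.38 and 6.96 in controls. No arrays overlapped, control 4 was the highest control, and the difference of -0.63 ± 0.144 missed the threshold (adjusted p = 0.0605). Col18a1, the source of the angiogenesis inhibitor endostatin, read 10.35, 10.37, 10.06 and 10.23 in mutants and 9.83, 9.89, 9.85 and 10.13 in controls, with 1 crossing between mutant 3 and control 4. At 0.33 ± 0.0986 it did not pass (adjusted p = 0.152). Its other probe set was at 0.26 ± 0.110 (adjusted p = 0.418 over all probe sets). Col18a1 passed in 3 of 16 alternative fits: without mutant 3 (0.39, adjusted p = 0.0473), with array weights (0.42) and with further quantile normalization (0.40). The array-weight fit gave mutant 3 a weight of 0.1077, against 0.9492 to 2.804 for the other arrays. For Col18a1 it is therefore not a separate check from leaving mutant 3 out. Col7a1, which anchors surface epithelium, was at -0.23 ± 0.137.

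Col8a1, a short-chain collagen of vessels and cornea, had the largest estimate of the family and did not pass. It read 5.96, 6.19, 6.37 and 5.68 in mutants and 8.07, 8.54, 8.32 and 5.73 in controls. Controls 1 to 3 stood far above all mutants, and control 4 lay among the mutants. The difference was -1.62 ± 0.533 (log2, ± SE, adjusted p = 0.201), and -2.26 without control 4 (adjusted p = 5.0e-04). The next probe set gave -0.66 ± 0.265 with control 4 again at the mutant level. Its partner Col8a2 was at 0.12 ± 0.193.

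Col26a1, a small collagen known from the developing testis and ovary, read 10.05, 10.21, 9.91 and 9.84 in mutants and 10.56, 10.98, 10.77 and 10.38 in controls. All mutants lay below all controls, and it fell by 0.67 ± 0.135 (adjusted p = 0.0399). Col26a1 passed in 9 of 16 alternative fits. Its second probe set lay below the lower quartile of genes and was at -0.03. Among transmembrane collagens, Col13a1, found at cell adhesions and nerve-muscle junctions, read 8.80, 8.99, 8.56 and 8.59 in mutants and 8.53, 8.23, 8.36 and 8.52 in controls. Its groups did not overlap, at 0.32 ± 0.114 (adjusted p = 0.243). Col17a1, part of epithelial hemidesmosomes, was at -0.53 ± 0.248, Col25a1 at -0.43 ± 0.165 and Col23a1 at 0.15 ± 0.136, and none of the 4 passed. Dimmer probe sets of Col25a1 and Col23a1 had the opposite sign. That of Col25a1 was at 0.09 ± 0.144, and those of Col23a1 were at -0.07 ± 0.164 and -0.05 ± 0.169.

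Samples within a group were not alike. Control 4 was the lowest control for 23 of 42 collagens (54.8%, against 27.7% of all genes), and mutant 2 the highest mutant for 23 (54.8%, against 24.0% of all genes). Mutant 4 was the lowest mutant for 15 (35.7%, against 11.2% of all genes). Over the 6 collagens that passed, with 0 at the other controls' mean and 1 at the other mutants' mean, control 4 lay at a median of 0.551 and mutant 2 at 0.563. The remaining controls lay at medians of -0.407 to -0.135 and the remaining mutants at 1.00 to 1.45. The mean level of bone markers was 6.29 to 6.33 in mutants, 6.39 in control 4 and 6.55 to 6.83 in the other controls. That of cartilage markers was 6.60 to 6.93 in mutants, 6.87 in control 4 and 7.22 to 7.44 in the other controls. Cnmd had the largest difference in that list (-1.78). Keratocyte and otic capsule markers (Kera and Otor) were at 6.48 to 7.01 in mutants, 7.44 in control 4 and 8.76 to 9.21 in the other controls, and Otor fell. The pair was listed with earlier results of these data known, and Kera is also among the fibril assembly partners. Its order therefore cannot count as a separate observation. Further lists shared low values in control 4. Tendon markers were at 5.81 to 6.44 in mutants, 6.36 in control 4 and 6.59 to 6.89 in the other controls, and 0 of 3 passed. Schwann cell markers were at 7.42 to 7.69 in mutants, 7.54 in control 4 and 7.97 to 8.10 in the other controls, and Foxd3 fell. Neuron markers were at 7.67 to 8.12 in mutants, 7.998 in control 4 and 8.39 to 8.54 in the other controls, where Tubb3 fell by 1.67 and Gap43 rose by 1.34. The order did not hold in other lists. Control 4 lay among the other controls for arch mesenchyme (11.32, against 11.09 to 11.38) and endothelial markers (8.49, against 8.41 to 8.53). The same held for epithelial (9.90, against 9.84 to 10.21) and erythroid markers (10.06, against 9.86 to 10.23). For smooth muscle and pericyte (8.14) and skeletal muscle markers (7.90) control 4 was the lowest of all 8 arrays. Macrophage markers did not follow this order either: their mean level was 8.01 to 8.52 in mutants, 7.08 in control 4 and 7.12 to 7.24 in the other controls. Of the 9 macrophage markers 8 rose, where 0.835% of all genes rose and 1.31% fell. The part of these marker lists in the collagen values was not tested.

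**Figure D4:**
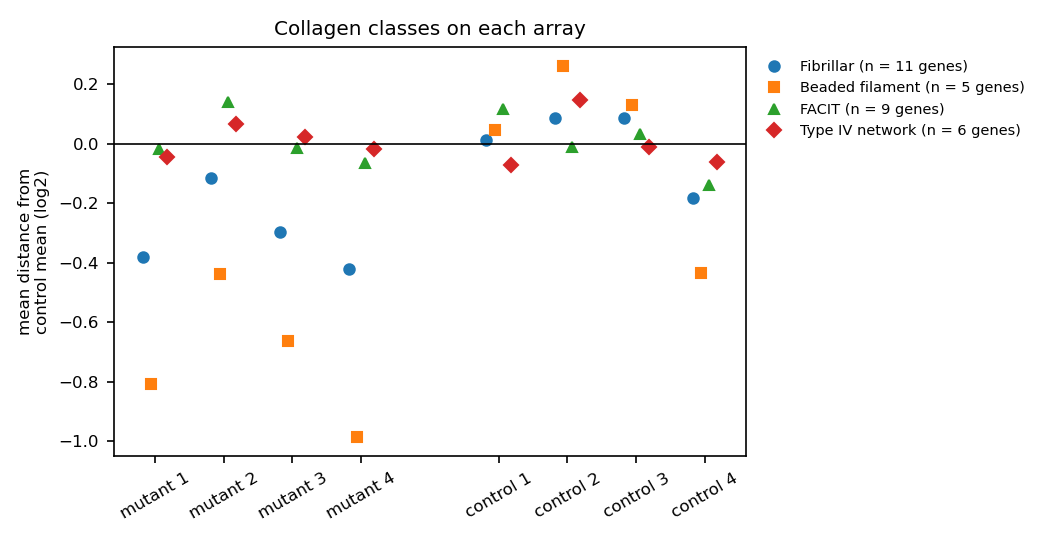
Mean distance of 4 collagen classes from their control mean (log2) on each array, mutants left of controls. Beaded-filament genes lie at -0.44 to -0.99 in mutants and fibrillar genes at -0.12 to -0.42, control 4 stands at -0.44 and -0.18, and type IV and FACIT genes stay within 0.15 of 0.

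The genes that modify and fold procollagen in the endoplasmic reticulum gave 19 estimates below 0 (Fkbp10 was not analysed here), with a median of -0.21. Mutant 3 was the lowest mutant for 15 of the 19, where it was for 51.2% of all genes. Without mutant 3 the median was -0.13, and 16 were below 0, with Plod2, Colgalt1 and Tmem38b above. In limma 0 passed, and 8 had an unadjusted p under 0.05, where 13.5% of all genes did. For 10 of them (52.6%) all mutants lay below all controls, where 7.02% of all genes did. Those nearest the threshold were the prolyl 3-hydroxylase gene P3h2 (-0.56 ± 0.124, adjusted p = 0.0537) and P4ha3 (-0.82 ± 0.181, adjusted p = 0.054), a prolyl 4-hydroxylase subunit gene. P4ha3 lay below the lower quartile of genes. P3h2 read 7.73, 8.11, 7.58 and 7.95 in mutants and 8.55, 8.38, 8.47 and 8.22 in controls. Serpinh1, the collagen chaperone HSP47, was at -0.11 ± 0.0972 with overlapping groups. Of 11 processing and cross-linking genes, 6 were below 0 and the median was -0.07, 0 passed in limma and 6 had an unadjusted p under 0.05 (13.5% of all genes). Loxl3, a lysyl oxidase, was at -0.36 ± 0.0813 (adjusted p = 0.0605) and Pcolce, an enhancer of procollagen cleavage, at 0.24 ± 0.0671 (adjusted p = 0.121). Lox itself was at -0.16 ± 0.324.

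**Figure D5:**
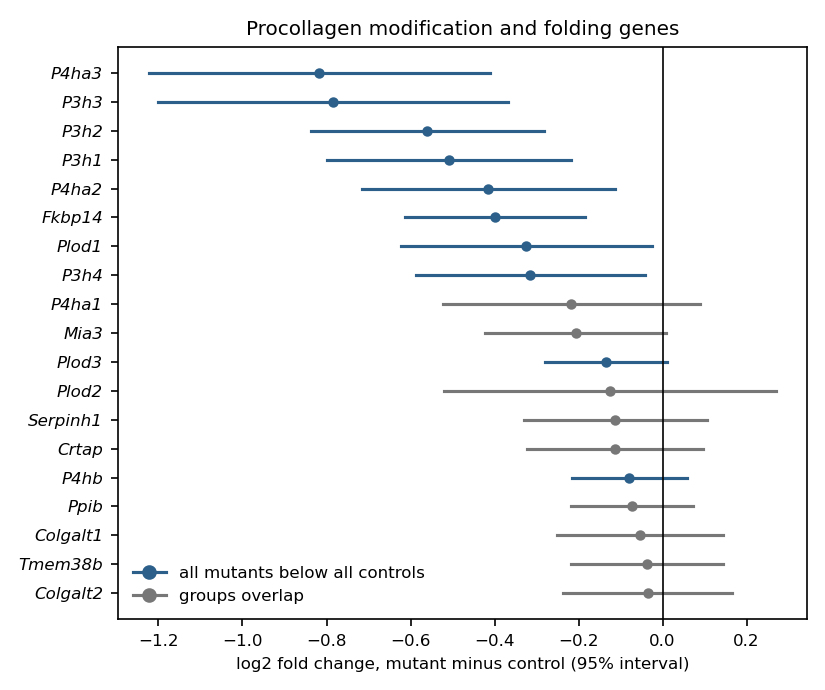
Log2 fold change (mutant minus control) with 95% interval for 19 genes of procollagen modification and folding. All estimates over the 8 arrays lie below 0, and 16 do without mutant 3. Blue marks the 10 genes for which every mutant lay below every control, and none passed an adjusted p of 0.05.

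Among genes of 17 proteins that assemble with fibrils, Bgn and Lum fell (11.8%, where 1.31% of all genes fell) and 0 rose. The median was -0.41, and 13 lay below 0. Bgn, a small proteoglycan that binds type I and type VI collagen, read 9.55, 9.85, 9.49 and 9.66 in mutants and 10.56, 10.59, 10.48 and 10.24 in controls. It fell by 0.83 ± 0.106 (adjusted p = 0.00574). Lum, which controls fibril spacing, fell by 1.61 ± 0.331 (adjusted p = 0.0419) and read 9.33 to 10.16 in mutants, 10.23 in control 4 and 11.54 to 11.88 in the other controls. The matrilins, which join collagen fibrils to other matrix, did not pass: Matn1 was at 0.12, Matn2 at -1.16 (adjusted p = 0.088), Matn3 at 0.48 (adjusted p = 0.0897) and Matn4 at -0.75 (adjusted p = 0.107). Calls in this list depended on control 4, with 9 made without it, and 1 was made without any one of controls 1 to 3 or mutants 1, 3 or 4. Calls over all genes went from 390 to 509 without control 4, and to 104 to 151 without any one of controls 1 to 3.

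Of 11 collagen receptors none passed (Itga11 was not analysed here), with a median of 0.00 and 2 at an unadjusted p under 0.05 (13.5% of all genes). Antxr1, a receptor that binds type I and type VI collagen, was at -0.46 ± 0.113 (adjusted p = 0.082) and the integrin chain Itgb1 at -0.23 ± 0.0792 (adjusted p = 0.234). Of 14 transcription factors known to act on collagen or skeletal genes, Foxc1 rose by 1.99 ± 0.269 (adjusted p = 0.00762), Nfix fell by 2.08 ± 0.373 (adjusted p = 0.0248) and 12 did not pass. Over all genes 0.835% rose and 1.31% fell. This list was chosen with earlier results of these data known, so its calls cannot be weighed against those shares. The 2 calls became 5 without control 4 and 1 without any one of controls 1 to 3 or mutants 1 or 4. Calls over all genes went from 390 to 509 without control 4, and to 104 to 151 without any one of controls 1 to 3. Sp7, the osteoblast factor, was at -0.52 ± 0.117 (adjusted p = 0.056). Mean levels of bone markers were 6.29 to 6.33 in mutants and 6.39 to 6.83 in controls, with 0 of 3 past the threshold and Ibsp below the lower quartile of genes.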

How the data were processed

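RNA of 8 mandibular arch samples was read on Affymetrix arrays. The authors deposited log2 expression per probe set, made by RMA per the submitters' processing notes; the sources used here give no version. RMA corrects background, equalizes the arrays and summarizes probes, and it compresses differences of dim probe sets.

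Of 45101 probe sets, 34958 had 1 gene symbol, 932 several and 9211 none. Genes were named by the platform annotation, and 34754 of these probe sets matched RefSeq (GRCm38.p6) by Entrez identifier. Each gene was represented by its brightest probe set. Mutants were compared with controls in limma 3.58.1 (R 4.3.3) over 18194 genes without covariates, and single probe sets in a second fit over all 34958. A gene rose or fell at a Benjamini-Hochberg adjusted p under 0.05. On simulated arrays over 18194 genes, a log2 change of 0.5 was recovered for 47.2% of the altered genes and a change of 1 for 90.6%, with 5.66% false calls. The simulation drew genes independently, each with the same spread on every array. It lacks the differences between arrays described above, so these shares need not hold for the real arrays.

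The members, lists and tests were chosen with earlier results of these data known, and the fit over all probe sets was added after seeing the data. The text names all collagens, and of each partner list up to 4 genes past the threshold or the 2 with the smallest p; Sox9, Sox6, Serpinh1, Lox, Sp7, the matrilins and marker genes were chosen after their values were seen. Motifs were searched in RefSeq promoter windows on both strands. Protein sequences were not analysed here. Alternatives were the replicate block, other probe set choices, a filter on dim genes, further quantile normalization, a trended robust variance, array weights, other thresholds and leaving out each array.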

Additional observations from a re-analysis of the deposited data

Results flagged for a closer look

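Of 84 groups of 4 arrays (42 collagens in mutants and in controls), 5 held an array far from the rest, where about 1 in 20 groups would by chance. The gap to the nearest array was taken as a share of the group's range and compared with Dixon's critical value. Control 4 was low for Col1a1 (9.61, against 10.27 to 10.32 in the other controls, share 0.927) and for Col8a1 (5.73, against 8.07 to 8.54, share 0.832). Control 1 was low for Col2a1 (9.998, against 10.28 to 10.32, share 0.856). Mutant 3 was low for Col23a1 (9.29, against 9.65 to 9.69 in the other mutants, share 0.912), and mutant 2 for Col20a1 (6.36, against 6.62 to 6.67, share 0.84).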

How the results depend on the processing

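All 6 collagens past the threshold kept their direction in every alternative. The 5 lower collagens became 11 with array weights, 8 at an adjusted p under 0.1, 0 at 0.01 and 2 with probe sets adjusted together, and 0 to 8 when 1 array was left out. The 1 higher collagen became 3 with array weights, 3 with further quantile normalization, 2 with the most variable probe set and 0 at 0.01, and 1 to 2 when 1 array was left out. Calls over all genes went from 390 to 1356 with array weights, 595 with further quantile normalization, 664 at 0.1 and 82 at 0.01, and to 104 to 618 when 1 array was left out. The array weight of mutant 3 was 0.1077, against 0.9492 to 2.804 for the other arrays. The array-weight fit and leaving out mutant 3 are therefore not independent checks, though their counts differed. Without mutant 3, 2 collagens were lower and 2 higher, and 618 genes were called. The family's median of -0.12 was -0.23 over genes above the median level and -0.20 to -0.08 when 1 array was left out. Col26a1 was at -0.35 over the mean of its probe sets. Leaving out 1 array, 16 to 19 of the 19 procollagen folding genes were below 0 and their median was -0.26 to -0.13, an alternative chosen after seeing the data. The causes were not tested. With the replicate number as a block, 6 collagens were lower and 1 was higher, and 293 genes were called. Same-numbered arrays correlated at 0.03, 0.00, -0.12 and 0.41 in their deviations, so the numbers are not taken as pairs, and only mutant 4 correlated best with its own number. Another 9 collagens passed under some alternative.

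Of 36 collagens that did not pass, 11 turned sign under some alternative, each with a size of at most 0.15 in the main comparison. With array weights Col4a2 was at 0.0042, Col4a5 at 0.10, Col4a4 at -0.057, Col6a5 at -0.033, Col19a1 at -0.017, Col22a1 at -0.0072, Col11a2 at -0.15 and Col6a4 at -0.049. With further quantile normalization Col4a5 was at 0.029, Col16a1 at 0.027, Col4a4 at -0.050, Col6a5 at -0.014, Col19a1 at -0.021, Col22a1 at -0.0092 and Col11a2 at -0.0031. With the mean of all probe sets Col19a1 was at -0.095. With the most variable probe set Col19a1 was at -0.31 and Col23a1 at -0.047. Leaving out 1 array, Col11a2 ranged from -0.11 to 0.11, Col12a1 from -0.14 to 0.26, Col16a1 from -0.078 to 0.0065, Col19a1 from -0.088 to 0.099, Col22a1 from -0.016 to 0.059, Col4a2 from -0.18 to 0.0036, Col4a4 from -0.072 to 0.045, Col4a5 from -0.13 to 0.10, Col6a4 from -0.028 to 0.16 and Col6a5 from -0.050 to 0.045.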
